A study of Mus musculus with 6 samples.

Results

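The genes described here encode the working parts of the lysosome: its proteases, glycosidases, sulfatases and lipid hydrolases, its membrane proteins, subunits of the proton pump that acidifies it, and the transcription factor TFEB. They were chosen by name, as 40 gene symbols looked up in the gene column of the deposited count table, and all 40 were found among its 45703 genes. RNA came from 6 cultures of dissociated dorsal root ganglia, the clusters of sensory neurons and glia beside the spinal cord, of adult C57BL/6 mice that were wild-type and 4 to 6 weeks old. Liberase-digested cells grew on a poly-L-lysine coat over 7 days, in medium that held 10% fetal calf serum and 10 ng/ml each of the growth factors EGF and FGF. Each sample combined 2 dishes. All 6 cultures formed a single group with the same treatment, so no untreated or control culture was compared, and the comparisons are between cultures and between genes within a culture. The labels do not say which animals went into which culture, so p-values measure only the spread between these samples, which may be technical in part.

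Lysosomes break down proteins, sugars and lipids that reach them by endocytosis, phagocytosis and autophagy, with hydrolases that work in an acidic lumen. The V-ATPase pumps protons inward to keep that lumen acidic, and membrane glycoproteins such as LAMP1 and LAMP2 line it. In peripheral nerve, lysosomes of Schwann cells and macrophages are known for the breakdown of myelin after injury, and inherited loss of many of these enzymes causes storage diseases that affect neurons and glia. TFEB is a transcription factor that activates many lysosomal genes through a promoter sequence called the CLEAR element.

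The letters of that element were searched in the members' promoters, because TFEB is itself a member. RefSeq promoter sequences on GRCm38.p6, covering 250 bases before to 50 bases after an annotated transcript start, were at hand for 34 of the 40 genes. The core of the element, TCACGTGA, was present in 6 of the 34 (17.6%), against 304 of 27025 genes with a promoter in the table (1.12%) and 225 of the 10730 of those genes that were tested here (2.10%). The shorter CACGTG, which lies inside the core, was present in 13 of the 34 (38.2%), against 8.09% of all genes and 11.5% of tested genes. Both motifs read the same on either strand. A match describes letters only and is no evidence of binding. The element is known from lysosomal genes, and the members were chosen by name as such genes. A share above the background was therefore likely beforehand and is no independent result. The stretches below show where the matches lie, with positions counted back from the transcript start used. For Ctsa and Atp6v1a that start and the stretch lie inside the gene's annotated span. These spans are 164832872 to 164841032 on chromosome 2 and 44085402 to 44139702 on chromosome 16. Ctsa had 2 promoter windows, and only the window that held matches is shown. Matched letters are in capitals, and each stretch is written in the direction of its gene.
Lamp1, chr8:13159091-13159160, plus strand: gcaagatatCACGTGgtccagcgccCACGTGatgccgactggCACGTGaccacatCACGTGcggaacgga
Mcoln1, chr8:3500439-3500498, plus strand: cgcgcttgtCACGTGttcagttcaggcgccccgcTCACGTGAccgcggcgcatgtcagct
Ctsa, chr2:164833733-164833772, plus strand: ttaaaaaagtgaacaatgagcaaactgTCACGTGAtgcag
Ctsd, chr7:142387888-142387947, minus strand: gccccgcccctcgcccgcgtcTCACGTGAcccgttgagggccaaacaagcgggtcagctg
Gla, chrX:134601176-134601245, minus strand: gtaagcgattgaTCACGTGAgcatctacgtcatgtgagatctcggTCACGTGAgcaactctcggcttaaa
Atp6v1a, chr16:44139360-44139419, minus strand: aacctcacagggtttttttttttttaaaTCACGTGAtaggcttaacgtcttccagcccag
Atp6v0d1, chr8:105566057-105566104, minus strand: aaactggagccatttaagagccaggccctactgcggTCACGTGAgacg

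In the shorter window of only the bases before the start, 5 of 34 members (14.7%) held the core, against 0.907% of all and 1.70% of tested genes, and 12 (35.3%) held CACGTG, against 6.86% and 9.77%. The Lamp1 stretch held 4 copies of CACGTG within the 70 bases before its start and no full TCACGTGA. Gla held the full core at positions -228 and -195, and Ctsa held it at -13 and again past the start of the RefSeq transcript. In Atp6v0d1 the core spanned the start itself. The 6 genes with the core had mean levels from 6.85 to 974 CPM per kb and coefficients of variation between cultures from 5.53% to 10.4%. CPM is a gene's count per 1000000 counts of its library, and CPM per kb divides it by the gene's combined exon length, which is the scale used here for levels of different genes. The 21 genes with neither motif ranged from 2.59 to 464 CPM per kb and varied by 3.19% to 75.7%. The 7 genes with CACGTG but not the core ranged from 13.2 to 504 CPM per kb and varied by 8.65% to 17.5%. Both the levels and the coefficients of variation of these sets overlapped.

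The libraries held 20070639 to 22968642 counts, and every member was counted at least 74 times in every culture. Together the 40 genes took 1.27% ± 0.0430 of all counts (SD, n = 6), at a summed 12697 ± 430.5 CPM. The sum was 13013 CPM in culture 1, 12894 in culture 2, 12625 in culture 3, 12991 in culture 4, 11868 in culture 5 and 12793 in culture 6. Culture 5 was the lowest and lay apart from the other cultures. The median level of the members was 38.5 CPM per kb, against 7.20 over the 14998 genes with enough counts to be tested, and 36 of 40 members lay in the upper 50% of those genes. Cultures 1 and 5 lay at the ends of the macrophage, fibroblast, mural and endothelial marker sums: summed macrophage markers (15 genes) ranged from 58.1 CPM in culture 1 to 582 in culture 5, and fibroblast markers (7 genes) from 3339 CPM in culture 1 to 13977 in culture 5. Glial lineage markers (5 genes) ranged from 4094 CPM in culture 5 to 5928 in culture 2. The defining markers of the labelled tissue were present: each of the 5 glial and 6 neuron markers was counted at least 156 times in every culture. Counts were not whole in 1 or more libraries for 17 members, and in all 6 for Ctsl and Atp6v1a, so these counts may include reads divided between genes. Of the members, 15 overlap another annotated gene, among them Ppt1 with Cap1 and Ctsb with Fdft1 on the opposite strand, and Glb1 with Tmppe and Asah1 with Frg1 on the same strand, so their counts are less certain.

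**Figure D1:**
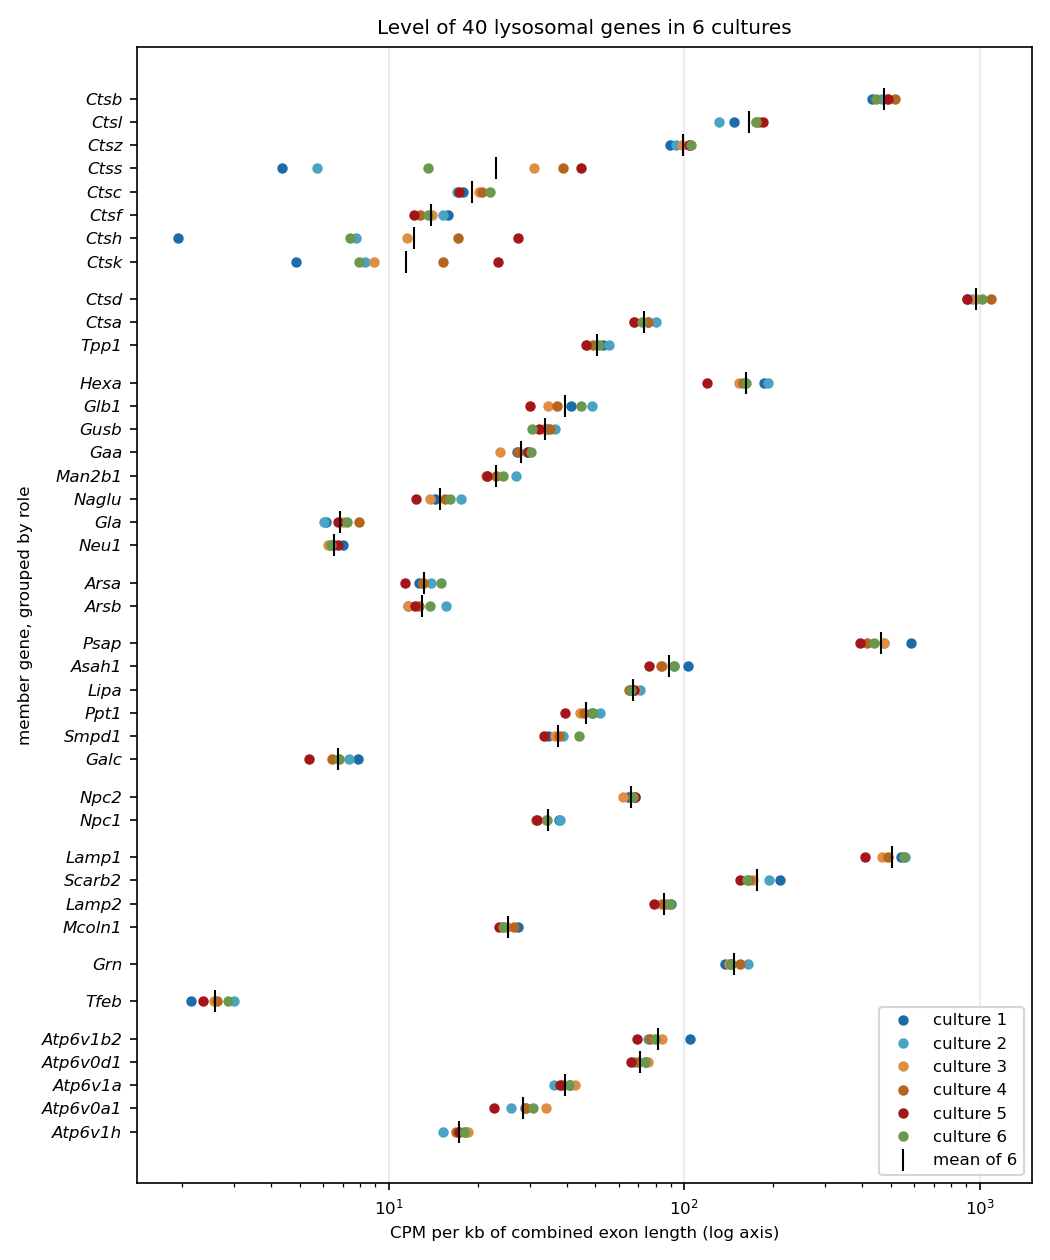
Level of each of the 40 genes, in CPM per kb of combined exon length on a log axis, with 1 point per culture and a black bar at the mean of 6, grouped by role. Ctsd is highest at 974 and Tfeb lowest at 2.59; for most genes the 6 points lie close together, while those of Ctss, Ctsh and Ctsk are spread widely.

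Cathepsin D and the cysteine cathepsins B and L were the most abundant lysosomal proteases. Ctsd (chromosome 7, 142375910 to 142387827), the main aspartic protease of the lysosome, had the highest level of all 40 genes at 974 ± 73.9 CPM per kb (SD, n = 6) and was the 10th highest of all tested genes. It was counted at 1739 CPM in culture 1, 1803 in culture 2, 1865 in culture 3, 2099 in culture 4, 1735 in culture 5 and 1960 in culture 6. Per kb, no other member reached the range of Ctsd in any culture. Ctsb, a cysteine protease with both endo- and exopeptidase activity, followed among the proteases at 473 ± 31.6 CPM per kb. Its CPM was 2042, 2224, 2310, 2461, 2315 and 2123 in cultures 1 to 6. Ctsb led the members by CPM and Ctsd led per kb, since the combined exons of Ctsb are longer (4743 against 1917 bases). Ctsl, an endopeptidase, stood at 165 ± 21.2 CPM per kb, with 470 CPM in culture 2 as its lowest and 663 CPM in culture 5 as its highest.

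The remaining proteases were lower. Ctsz, a carboxypeptidase, reached 99.2 ± 6.50 CPM per kb, Ctsa, a serine carboxypeptidase that also protects neuraminidase and beta-galactosidase in a complex, 73.0 ± 4.93, and Tpp1, which removes tripeptides and is mutated in a childhood ceroid lipofuscinosis, 50.5 ± 3.59. Ctsc, the dipeptidyl peptidase that activates granule proteases of immune cells, stood at 19.1 ± 2.05 CPM per kb and Ctsf at 13.9 ± 1.44 (SD, n = 6 for each). These 5 genes varied by 6.55% to 10.7% between cultures.

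Cathepsins S, H and K were the exception in spread. Ctss (chromosome 3, 95526786 to 95556405), an endopeptidase of macrophages and other antigen-presenting cells that stays active at neutral pH, was counted at 6.31 CPM in culture 1, 8.29 in culture 2, 44.9 in culture 3, 56.2 in culture 4, 64.8 in culture 5 and 19.7 in culture 6. Cultures 3, 4 and 5 were high and cultures 1 and 2 low, a span of 10.3-fold. Ctsh, an aminopeptidase, was counted at 3.22, 12.9, 19.2, 28.6, 45.8 and 12.3 CPM in cultures 1 to 6. Its span of 14.2-fold became 3.71-fold without culture 1 and 8.88-fold without culture 5. Ctsk (chromosome 3, 95499210 to 95509387), a collagen-degrading cathepsin known from osteoclasts and also made by activated fibroblasts, was counted at 10.9, 18.8, 20.1, 34.4, 52.9 and 17.9 CPM. Culture 5 was its highest and culture 1 its lowest, and the 4.86-fold span became 2.96-fold without culture 1 and 3.16-fold without culture 5. The coefficients of variation of Ctss, Ctsh and Ctsk were 75.7%, 73.8% and 59.4%. The next largest value, that of Glb1, was 17.5%.

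Markers of other cell types moved with these cathepsins. The summed macrophage list was 58.1, 100.3, 442, 553, 582 and 166 CPM in cultures 1 to 6, which puts the cultures in the same order as Ctss. Expressed against that sum, Ctss was 10.9%, 8.26%, 10.2%, 10.1%, 11.1% and 11.9% of it, a span of 1.43-fold in place of 10.3-fold. Lyz2, which encodes lysozyme and whose counts were fractional in all 6 libraries, made up 55.0% to 64.7% of the sum, and without it the span was 1.83-fold. All 15 macrophage markers were counted, and 14 of them were lowest in culture 1. Ctsk did not keep a steady ratio to the macrophage sum, with a span of 4.12-fold. Against the summed fibroblast list, which was 3339, 6064, 4432, 7452, 13977 and 4801 CPM, Ctsk was 0.326%, 0.309%, 0.453%, 0.461%, 0.379% and 0.372%, a span of 1.49-fold. The corresponding span of Ctss against the fibroblast list was 7.41-fold. For Ctsh the ratio spanned 2.97-fold against macrophage and 4.49-fold against fibroblast markers. Ratios to the mural and endothelial sums were not computed. Those sums were also lowest in culture 1 and highest in culture 5, at 299 to 1937 and 8.71 to 120 CPM. The ratios given therefore do not single out a cell type. Most of the fibroblast sum came from Col1a1, Col1a2 and Col3a1, with means of 1781, 2694.5 and 1954 CPM. Dcn, Dpt, Lum and Pdgfra had means of 4.23 to 172 CPM and spanned 10.2- to 27.3-fold between cultures, where Ctsk spanned 4.86-fold. The 1.49-fold span therefore describes Ctsk mainly against the collagen genes. The osteoclast markers Calcr, Dcstamp and Ocstamp, other than Acp5, had at most 4 counts in any culture. These ratios were chosen after the values were seen, they are across only 6 cultures, and the part of each cell type in the result was not tested. In such bulk samples a larger number of cells of a type and more RNA per cell cannot be told apart.

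**Figure D2:**
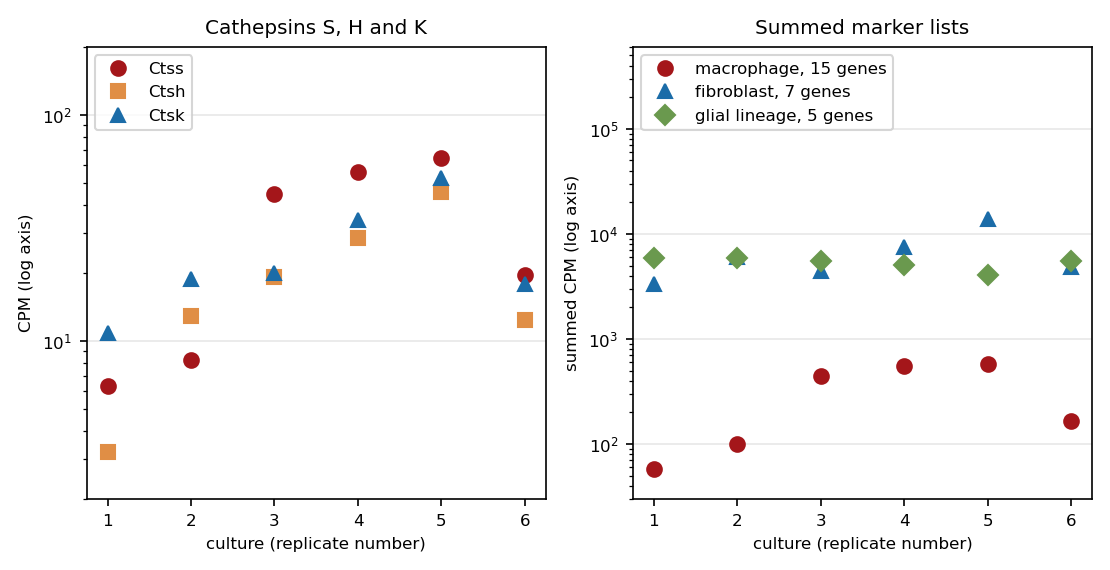
Left, CPM of Ctss, Ctsh and Ctsk in each culture on a log axis; right, summed CPM of the macrophage, fibroblast and glial lineage marker lists in the same cultures on a log axis, with 1 point per culture. Ctss spans 6.31 to 64.8 CPM and is high in cultures 3, 4 and 5, where the macrophage sum is 442 to 582 CPM, while the glial sum stays between 4094 and 5928 CPM.

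Among the 8 glycosidases, Hexa was by far the highest. Hexa (chromosome 9, 59539540 to 59565109) encodes the alpha subunit of beta-hexosaminidase, which degrades GM2 ganglioside, and reached 162 ± 26.1 CPM per kb (SD, n = 6). It was counted at 387 CPM in culture 1, 401 in culture 2, 319 in culture 3, 329 in culture 4, 249 in culture 5 and 339 in culture 6. Culture 5 was low and cultures 1 and 2 were high, and its coefficient of variation of 16.1% became 10.4% without culture 5. Glb1, the beta-galactosidase whose activity is used as a stain for senescent cells, followed at 39.5 ± 6.91 CPM per kb and varied by 17.5%, the largest value outside cathepsins S, H and K. Its counts were 103, 122, 86.3, 92.1, 74.8 and 112 CPM in cultures 1 to 6, with culture 5 again the lowest.

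The other glycosidases formed a graded series. Gusb, beta-glucuronidase, stood at 33.7 ± 2.12 CPM per kb, Gaa, the acid glucosidase that degrades glycogen, at 28.0 ± 2.42, Man2b1, an alpha-mannosidase, at 23.1 ± 2.26 and Naglu, which acts on heparan sulfate, at 15.0 ± 1.84. Gla, the alpha-galactosidase lacking in Fabry disease, had 6.85 ± 0.710 CPM per kb and Neu1, the lysosomal sialidase, 6.55 ± 0.281. Neu1 had 24.0 to 27.0 CPM in every culture, a coefficient of variation of 4.30%. The sulfatases Arsa, which acts on the myelin lipid sulfatide, and Arsb, which acts on dermatan sulfate, lay close together at 13.2 ± 1.22 and 12.9 ± 1.53 CPM per kb.

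Psap led the genes of lipid breakdown. Psap (chromosome 10, 60277628 to 60302600) encodes prosaposin, the precursor of the saposins that present sphingolipids to their hydrolases, and stood at 464 ± 68.0 CPM per kb. It was counted at 1603 CPM in culture 1, 1293 in culture 2, 1292 in culture 3, 1138 in culture 4, 1075 in culture 5 and 1198 in culture 6. Culture 1 was high, and without it the coefficient of variation of Psap fell from 14.7% to 7.96%. Asah1, acid ceramidase, had 88.5 ± 9.26 CPM per kb, Lipa, acid lipase, 67.2 ± 2.15, Ppt1, which removes palmitate from proteins, 46.6 ± 4.41, and Smpd1, acid sphingomyelinase, 37.5 ± 3.73. Galc, which degrades the myelin lipid galactosylceramide and is lacking in Krabbe disease, was the lowest of this group at 6.76 ± 0.841. Lipa had 193 to 210 CPM and, over all 6 cultures, the smallest coefficient of variation of the 40 genes, 3.19%. It was 2.05% without culture 2, whereas Neu1 was smaller than Lipa without culture 1, Npc2 without culture 3 and Lamp2 without culture 5. Npc2 and Npc1, the soluble and membrane proteins that pass cholesterol out of the lysosome, were counted at 202 to 223 CPM and 168 to 203 CPM. Grn, progranulin, which binds prosaposin, had 148 ± 9.97 CPM per kb.

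Of the membrane proteins, Lamp1 (chromosome 8, 13159161 to 13175338) had the second highest level of all members, 504 ± 58.8 CPM per kb. It was counted at 1208, 1249, 1046, 1091, 916 and 1239 CPM in cultures 1 to 6, with culture 5 the lowest. Scarb2, also called LIMP-2, which carries glucocerebrosidase to the lysosome, stood at 177 ± 21.6 CPM per kb, with 997 CPM in culture 1 and 728 CPM in culture 5. Lamp2, which also serves chaperone-mediated autophagy, had 85.8 ± 4.03 CPM per kb and 536 to 610 CPM. Mcoln1, a calcium-releasing channel of the TRP family, had 25.3 ± 1.42 CPM per kb and 47.4 to 54.9 CPM.

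The 5 V-ATPase subunits lay between 17.4 and 81.6 CPM per kb. Atp6v1b2, a nucleotide-binding subunit of the cytosolic V1 part, had 81.6 ± 12.3 CPM per kb, Atp6v0d1 of the membrane V0 part 71.1 ± 3.93, Atp6v1a, the catalytic subunit, 39.6 ± 2.34, Atp6v0a1, the a subunit that helps form the proton path, 28.6 ± 3.93, and Atp6v1h, a regulatory subunit, 17.4 ± 1.21 (SD, n = 6 for each). Atp6v1b2 was counted at 287 CPM in culture 1 and 190 to 231 CPM in the other cultures, and its coefficient of variation fell from 15.0% to 7.08% without culture 1. Atp6v0a1 was lowest in culture 5 at 110 CPM and highest in culture 3 at 165 CPM. Atp6v0d1, Atp6v1a and Atp6v1h varied by 5.53% to 6.96%, and Atp6v1h, the highest of these, by 3.92% without culture 2.

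Tfeb (chromosome 17, 47737037 to 47792416) had the lowest level of the members, 2.59 ± 0.318 CPM per kb, and ranked 10917 of the 14998 tested genes. Gla, Galc and Neu1 were the other members in the lower 50%. It was counted at 12.3 CPM in culture 1, 17.3 in culture 2, 14.8 in culture 3, 15.1 in culture 4, 13.6 in culture 5 and 16.5 in culture 6. No culture stood apart. Between Tfeb and the highest member, Ctsd, the level per kb differed by 376-fold.

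In the order of levels, most neighbours could not be separated by their ranges. Of the 39 neighbouring pairs, the ranges of the 6 cultures overlapped in 34. Within cultures, the gene with the higher mean was higher in 6 of 6 for 7 of the pairs. Among these were Tpp1 over Ppt1 and Ppt1 over Atp6v1a, whose ranges overlapped. The 5 steps without overlap were from Ctsd to Lamp1, from Psap to Scarb2, from Grn to Ctsz, from Npc2 to Tpp1 and from Neu1 to Tfeb. By this overlap of neighbours, Lamp1, Ctsb and Psap formed 1 tier between 464 and 504 CPM per kb. Scarb2, Ctsl, Hexa and Grn formed another between 148 and 177. Genes of a tier can still differ within cultures: Scarb2 exceeded Grn in every culture. Combined exon length counts all annotated exons, so a gene with long or unused exons is placed too low on this scale.

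The spread between cultures was tested on all 14998 genes by comparing each gene's 6 counts with TMM-scaled library sizes from edgeR in a chi-square test. At a Benjamini-Hochberg adjusted p under 0.05 the test called 76.3% of all genes tested, and 87.9% of those at least as abundant as Tfeb. Of the members, 39 of 40 passed, and Neu1 did not (adjusted p = 0.228). The share of members that passed was above both backgrounds, but neither was matched to the members in level. The difference was not tested and is not read as a trait of the members. Leaving out single cultures, 5 further members lost the call: Atp6v1h (adjusted p = 0.0717) and Lipa (0.489) without culture 2, Gla (0.0833) without culture 4, Mcoln1 (0.166) without culture 1 and Npc2 (0.0717) without culture 3.

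The size of the spread was modest for most members. The median coefficient of variation was 9.86% over the 40 genes, 12.1% over all tested genes and 9.18% over the 9038 genes at least as abundant as Tfeb. It was under 10% for 21 members, between 10% and 20% for 16 and above 20% for 3. Of all tested genes 40.03% lay under 10% and 27.6% at 20% or more, and of those at least as abundant as Tfeb 55.9% and 14.5%. One culture moved the coefficient by over 1.5 times in further members: without culture 2 it was 6.11% for Man2b1, 7.19% for Arsb and 4.49% for Grn. It was 4.95% for Gaa and 2.37% for Npc2 without culture 3, 8.03% for Galc and 3.12% for Lamp2 without culture 5, and 6.22% for Smpd1 without culture 6. The highest culture was less than 1.5 times the lowest for 34 members, and for 60.6% of all tested genes. The 6 exceptions were Ctss, Ctsh, Ctsk, Glb1, Hexa and Atp6v1b2. Relative to genes of similar abundance, edgeR's dispersion of a gene lay above its trend for 5 members, namely Ctss at 15.0 times, Ctsh at 9.77, Ctsk at 5.52, Glb1 at 1.39 and Hexa at 1.10 times the trended value, and for 20.4% of all tested genes.

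**Figure D3:**
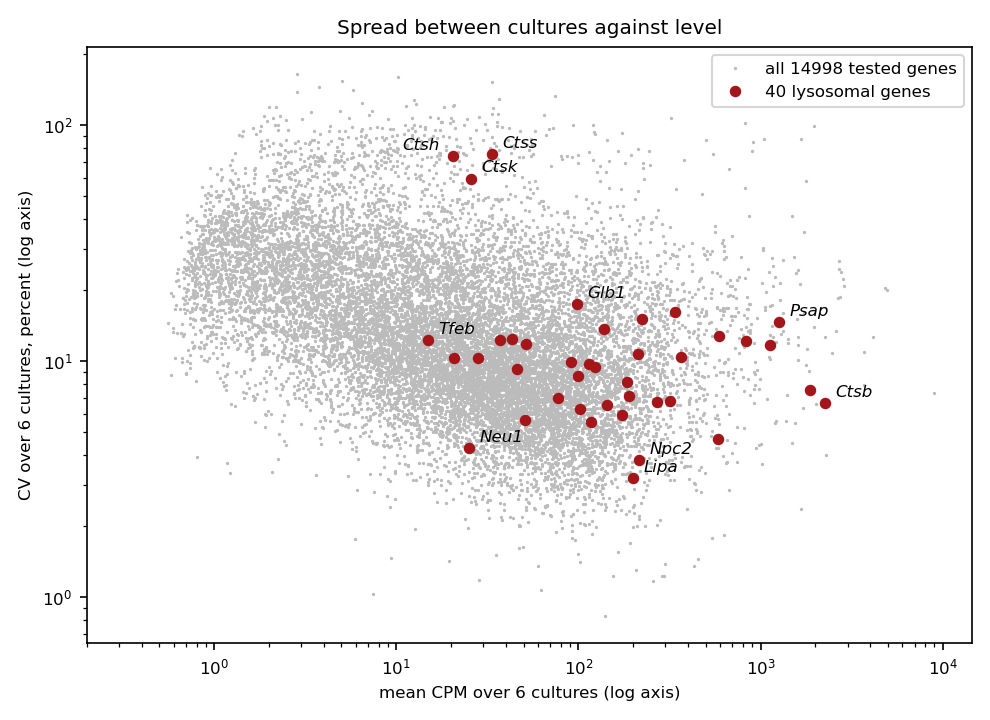
Coefficient of variation over the 6 cultures, in percent on a log axis, against mean CPM on a log axis, for all 14998 tested genes (grey) and the 40 lysosomal genes (red). Ctss, Ctsh and Ctsk lie at 75.7%, 73.8% and 59.4%, and the other members lie between 3.19% and 17.5%.

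The cultures differed in which members were high. Culture 5 held the lowest value of 20 of the 40 members, and of 26.2% of all tested genes. Hexa was lowest there at 70.1% of the mean of the other 5 cultures, followed by Glb1 at 72.7%, Atp6v0a1 at 76.5%, Galc at 76.6% and Lamp1 at 78.6%. Of the 20 genes, Mcoln1 was the least reduced at 92.6%. Culture 2 held the highest value of 14 members, and of 10.7% of all tested genes. Relative to each gene's mean over the cultures, the median member lay at -0.11 on the log2 scale in culture 5, at 0.06 in culture 2 and between -0.02 and 0.05 in the others. For all tested genes these medians lay between -0.04 and 0.02. With TMM scaling the median member lay at -0.12 in culture 5 and 0.09 in culture 2. Culture 5 was also the culture with the lowest glial lineage sum, 4094 against 5022 to 5928 CPM, and the lowest neuron sum, 682 CPM. It had the highest macrophage, fibroblast, mural and endothelial sums. The part of these cell types in the result was not tested.

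**Figure D4:**
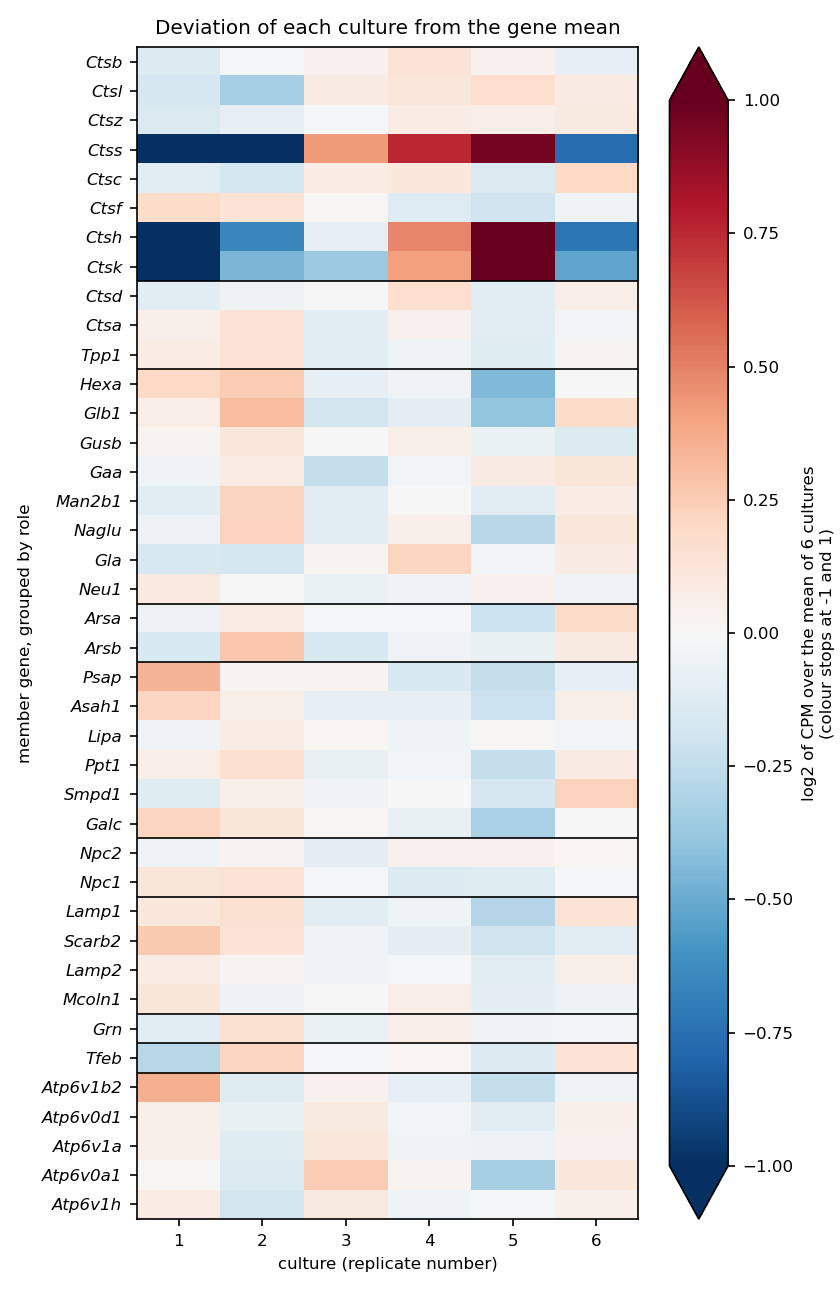
Each gene's CPM in each culture relative to its mean over the 6 cultures, as log2, with red above and blue below the mean and colours that stop at -1 and 1; rows are the 40 genes grouped by role. Ctss, Ctsh and Ctsk run from dark blue in culture 1 to dark red in culture 5, while Hexa, Glb1, Galc, Lamp1 and Atp6v0a1 are bluest in culture 5.

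Partner genes were compared within each culture, as the log2 ratio of their CPM per kb, for 14 pairs. In each of them the same gene was higher in 6 of 6 cultures (two-sided exact permutation of signs, p = 0.0312 for every pair, which is the lowest that 6 cultures allow, and 0.0312 after Benjamini-Hochberg adjustment over the 14 pairs). The test treats cultures as units and does not cover the error of the length scaling. Genes of unlike level and small spread reach this p-value readily, and the pairs were chosen with earlier results known. Tpp1, not paired with Ppt1 here, also exceeded it in 6 of 6 cultures, at a ratio of 1.08. Passing is therefore not particular to partner genes. Lamp1 exceeded Lamp2 by 2.55 ± 0.111 on the log2 scale, or 5.85-fold (SD, n = 6), and by 0.95 without length scaling. Ctsd exceeded Ctsb by 1.04 ± 0.101 and Ctsb exceeded Ctsl by 1.53 ± 0.170. Npc2 exceeded Npc1 by 0.94 ± 0.145, and by 0.23 without length scaling.

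The genes of 1 enzyme complex were not at matched transcript levels. CTSA, GLB1 and NEU1 form a lysosomal multienzyme complex, and Ctsa exceeded Neu1 by 3.48 ± 0.103 (11.1-fold) and Glb1 exceeded Neu1 by 2.57 ± 0.267 (5.96-fold), the latter by 1.94 without length scaling. Outside this complex, Psap exceeded Grn by 1.64 ± 0.249, with 2.10 in culture 1 and 1.43 to 1.74 in the others. Arsa exceeded Galc by 0.97 ± 0.161, a difference that was 0.0902 without length scaling (exact sign-flip permutation, adjusted p = 0.188).

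Subunits of the V-ATPase, of which A and B occur in equal numbers in the pump, also differed. Atp6v1a was lower than Atp6v1b2, with a log2 ratio of -1.03 ± 0.167 that was -0.35 without length scaling. It exceeded Atp6v1h by 1.19 ± 0.0391, the tightest ratio of the 14. Atp6v0d1 exceeded Atp6v0a1 by 1.32 ± 0.133. Without length scaling this log2 ratio was -0.22, and that of Ctsd over Ctsb -0.27, so both directions reversed. Among the related transcription factors, Tfe3 exceeded Tfeb by 3.00 ± 0.171 (8.01-fold), whereas Mitf was lower than Tfeb, with a log2 ratio of -1.60 ± 0.367. Mitf itself was counted at 3.87 CPM in culture 1 and 8.55 CPM in culture 5, and the Mitf to Tfeb ratio lay at -1.99 in culture 1 and -0.99 in culture 5.

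**Figure D5:**
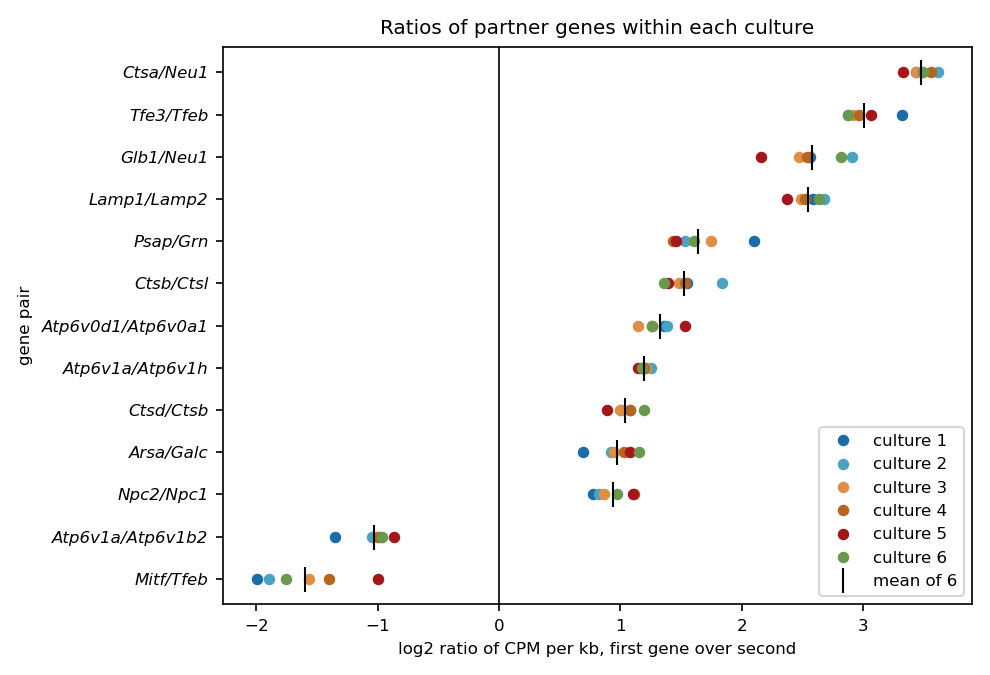
Log2 ratio of CPM per kb of the first gene over the second, for 13 pairs, with 1 point per culture and a black bar at the mean of 6; the vertical line marks equal levels. All 6 points lie on the same side of the line in every pair, from -1.60 for Mitf over Tfeb to 3.48 for Ctsa over Neu1.

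Other genes of the pathway were read from lists chosen by function. Of 20 further V-ATPase genes, 14 had enough counts to be tested and all 14 varied beyond counting noise by the chi-square test. The share was 76.3% of all tested genes and 87.9% of those at least as abundant as Tfeb. The median coefficient of variation of the 14 genes was 7.12%. None of the 14 reached 20%, but the count filter keeps only genes with enough counts in every culture. It left out Atp6v0a4 and Atp6v0d2, whose coefficients of variation were 125% and 85.5%. The highest were Atp6ap1, an accessory subunit, at 147 ± 7.33 CPM per kb, Atp6v1g1 at 89.4 ± 4.83 and Atp6v0e at 87.9 ± 3.07. Isoforms known from other tissues were rare: Atp6v1b1 and Atp6v1e2 had 0 counts in all cultures, Atp6v1g3 had at most 2, and Atp6v0a4 ranged from 0.283 CPM in culture 1 to 4.39 CPM in culture 5. Atp6v0d2, the d isoform of osteoclasts and macrophages, had 0.261, 0.592, 4.39, 5.23, 7.36 and 1.96 CPM in cultures 1 to 6. That order of cultures equals the order of Ctss. Too few counts in culture 1 kept Atp6v0d2 out of the test. It was chosen for naming after its values were seen.

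Of 19 further hydrolases, 18 were tested and 15 varied beyond counting noise, with a median coefficient of variation of 9.07%. Of all tested genes 76.3% did so, and 87.9% of those at least as abundant as Tfeb. Lgmn, the asparaginyl endopeptidase legumain that processes cathepsins, was the highest at 121 ± 13.7 CPM per kb, and Fuca1, alpha-fucosidase, stood at 52.8 ± 2.69. Acp5, the tartrate-resistant phosphatase of osteoclasts and macrophages, had 6.93 CPM in culture 5 and 0.335 to 1.84 CPM in the others. Too few counts in culture 6 kept it out of the test, so its coefficient of variation of 133% is not in that median. Of 11 further membrane proteins, 8 varied beyond counting noise, against the same 76.3% and 87.9%. Cd63, a tetraspanin, had 459 ± 41.2 CPM per kb, Laptm4a 276 ± 15.7 and Laptm4b 56.8 ± 12.5. Laptm5, a lysosomal membrane protein of blood cells, was counted at 3.13, 4.60, 22.9, 26.8, 35.5 and 10.5 CPM and put the cultures in the order of Ctss.

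Of 15 genes for delivery and regulation, 14 were tested and all 14 varied beyond counting noise. Here too, 76.3% of all tested genes did, and 87.9% of those at least as abundant as Tfeb. M6pr, the cation-dependent mannose 6-phosphate receptor that delivers hydrolases, had 65.9 ± 3.75 CPM per kb, and the Rag GTPases Rraga and Rragc, which recruit mTORC1 to the lysosome, had 50.7 ± 2.91 and 40.9 ± 1.21. Igf2r, the larger mannose 6-phosphate receptor, was counted at 98.4, 146, 111, 154, 264 and 118 CPM. Culture 5 was high, and without it the coefficient of variation of Igf2r fell from 40.5% to 18.9%. Of 4 cathepsin inhibitors, 3 were tested and all 3 varied beyond counting noise, again against 76.3% and 87.9%. Cst3, cystatin C, a secreted inhibitor of cysteine cathepsins, had 136 ± 13.0 CPM per kb, Serpinb6a 110 ± 7.87, and Cstb, the cytosolic cystatin B, 67.1 ± 3.35.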

How the data were processed

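Polyadenylated RNA of 6 cultures was sequenced. Per the submitters' processing notes, bcl2fastq 2.20.0.422, cutadapt 2.5, STAR 2.7.2b and featureCounts 1.6.4 were used with GRCm38.p6; their settings, among them strand and multi-matching reads, are not given in the sources used here. The authors deposited 1 table of unscaled estimated counts per gene, in part fractional, with a combined exon length. It held 0 columns of other samples. The members and lists were chosen with earlier results of these data known. Named genes were all members, and of each further list the 3 highest per kb, the most variable with a mean of at least 1 CPM, and the genes of the pairs. CPM used unrounded counts. For the chi-square test, counts were rounded, filtered with edgeR 4.0.16 filterByExpr and scaled by TMM (R 4.3.3), and p-values were adjusted over all 14998 genes; DESeq2 1.42.0 size factors were an alternative. Pair ratios were tested by exact sign flips. Both were tested on simulated data. Other alternatives were no filter, whole counts only, other scalings and leaving out each culture. The chi-square test covers counting error only, and PCR copies are not independent molecules. Of the named genes and pairs, 1 further gene and 1 pair are not reported here.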

Additional observations from a re-analysis of the deposited data

Results flagged for a closer look

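In 82 measures (the 40 members, 8 sums by role, the sum of all members, 14 pair ratios and 19 genes of the further lists that were named by rule) the lowest or highest culture was tested for lying apart, by its distance to the closest other culture as a fraction of the whole range, against Dixon's 95% limit for 6 values. The limit was passed in 6 measures, and chance, at 1 in 20, would give 4.1. None of the 40 members passed it singly (largest fraction 0.587, Psap). The summed CPM of the members had a fraction of 0.661, with culture 5 lowest at 11868 CPM. The log2 ratio of Atp6v1a to Atp6v1b2 had 0.626, with culture 1 lowest at -1.35. For further genes of the pathway the fraction was 0.680 for Atp6v1g1, with 108 CPM in culture 1 against 93.1 to 97.9 in the others, 0.784 for Atp6v0a4, 0.771 for Acp5 and 0.661 for Igf2r, the last 3 with culture 5 highest. Outside these 82 measures, 3 genes of the further lists also passed the limit: Idua at 0.855 with culture 3 highest, Tcirg1 at 0.776 with culture 1 lowest, and Atp6v1g3, which had 2 counts in 1 culture and 0 in the others.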

How the results depend on the processing

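The number of all genes varying beyond counting noise was 11444, and 5848 when only genes with whole counts in all libraries were tested; for the members these numbers were 39 of 40 and 22 of 23, lower because fewer genes were tested. Leaving out each culture gave 10098 to 11253 genes and 37 to 39 members, a median coefficient of variation of 8.33% to 10.7% and a summed level of 12634 to 12863 CPM. Without length scaling the log2 ratio was reversed for Atp6v0d1 over Atp6v0a1 (-0.22) and for Ctsd over Ctsb (-0.27), and that of Arsa over Galc was 0.0902 and no longer passed (exact sign-flip permutation, adjusted p = 0.188). The other pair ratios kept direction and call without length scaling, though not their size, and with 0.5 CPM per kb added. With 1 culture left out the sign-flip test cannot reach 0.05, so only means were computed, and none changed sign. No paired analysis was possible because all samples belong to 1 group. Levels rest on annotated exon lengths. The 74 counts of Ctsh in culture 1 limit the precision of its span.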
